A study of Mus musculus with 6 samples.

Results

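The chaperone and heat shock genes described here are the 81 gene symbols, of 49997 in the deposited count table, that begin with Hspa, Hspb, Hspd, Hspe, Hsph, Hsp90a, Dnaja, Dnajb or Dnajc, or are Tcp1, a Cct subunit gene or Hsf1. Hspa5, Dnajb9, Dnajc3 and 15 symbols holding "-ps" were left out by the same rule. RNA was sequenced from small pre-B cells, B-cell precursors that have mostly stopped dividing and rearrange their light chain genes, sorted by flow cytometry from mouse bone marrow. The WT group was 3 libraries from C57BL/6 mice with no stated alteration, and the rsCBE group was 3 libraries from C57BL/6 mice of the ΔrsCBE genotype. All mice were 6 to 12 weeks old and no treatment is named. The labels give neither the deleted interval nor whether a library pooled animals, so p-values measure only the spread between these libraries.

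Chaperones bind unfolded proteins and help them fold. HSP70 proteins clamp and release a client in a cycle driven by ATP, J-proteins (Dnaja, Dnajb and Dnajc) bring clients and start the ATP step, and HSP110 proteins such as Hspa4 and Hsph1 exchange the nucleotide. HSP90 acts on clients that are nearly folded, TRiC is a ring of Tcp1 and Cct subunits that folds actin and tubulin, and Hspd1 with Hspe1 is the corresponding chamber of mitochondria. Hsf1 is the transcription factor that binds heat shock elements and induces many of these genes under stress. Some of the 81 are not cytosolic: Hspa9, Hspd1, Hspe1 and Dnaja3 encode mitochondrial proteins, Hspa13, Dnajb11, Dnajc1 and Dnajc10 proteins of the endoplasmic reticulum, and Hspbp1 and Hspbap1 were matched by their first letters.

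Library totals ran from 428106 to 1300805 counts, so that 3 counts, taken as the smallest detectable amount, equal 2.38 to 7.36 CPM. CPM here is a count scaled by its library's total over the tested genes and by the TMM factor of edgeR. Of 10 pre-B cell marker genes, among them Rag1, Pax5 and Cd79a, all were tested and 0 passed the threshold used below (edgeR, 4 at an unadjusted p under 0.05). Markers of pro-B and large pre-B cells summed to 4543 to 4775 CPM in WT and 4861 to 5870 CPM in rsCBE. Most of that came from Myb, while Kit, Dntt, Igll1 and Vpreb1 had at most 10 counts each. Mature B cell markers summed to 432 to 530 CPM in WT and 409 to 453 CPM in rsCBE. Plasma cell markers summed to 98.1 to 120 CPM in WT and 119 to 147 CPM in rsCBE. In each of these lists 0 tested genes passed the threshold. Markers of T and NK cells summed to 4.13 to 9.81 CPM per library with 3 of 9 detected, erythroid markers to 2.42 CPM or less with 2 of 7 detected, and Cd3e stood at 0. Myeloid markers summed to 53.9 to 83.4 CPM in WT and 56.9 to 68.2 CPM in rsCBE with 6 of 9 detected, most of it from Itgam (279 counts). The myeloid genes S100a8 and Elane stood at 0, while Lyz2 had 8 counts and S100a9 had 6, all in rsCBE libraries. Xist, which is transcribed from the inactive X chromosome, had 1603 and 1430 counts in rsCBE replicates 2 and 3 and at most 1 count elsewhere, whereas Y-linked genes had 121 to 452 counts in the WT libraries and rsCBE replicate 1. The groups therefore differ in this pattern, and values from a fit with it as a covariate are given for some of the genes. No WT library had the Xist pattern, so in that fit the genotype estimate compares rsCBE replicate 1 with the WT libraries. It thus rests on 1 rsCBE library and is not an estimate over the whole group. A cell cycle list summed to 6563 to 7388 CPM in WT and 2712 to 4373 CPM in rsCBE, with 16 of 18 tested genes past the threshold, each of them lower. A list of early response genes, which handling of cells can induce, summed to 3595 to 4116 CPM in WT and 4814 to 6883 CPM in rsCBE, with 4 of 13 past it, each higher. The part of these differences in the results below was not tested unless a value is given. For all 7792 tested genes, the share past the threshold was 1.69%, with 1.49% lower and 0.205% higher. An unadjusted p under 0.05 (edgeR) was reached by 10.2% of them.

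Sequence is shown first where it bears on how the values can be read. Heat shock elements are printed because they are the sites through which Hsf1 acts. The search took the triplets GAA, TTC and GAA, or TTC, GAA and TTC, each followed by the next after 2 free bases, on both strands of RefSeq promoter windows (GRCm38.p6), which run from 250 bases before to 50 after each start, 300 in all. Windows were given for 64 of the 81 genes. The other 17, among them Hspa8, Hspa13, Hsp90aa1, Hsp90ab1 and Hsf1, had no window and were not searched. A match occurred in 6 of 83 member windows (7.23%), belonging to 4 genes, against 0.6% of all 32851 windows. The letters below read 5′ to 3′ on the strand named, and capitals mark the motif.
Hspe1, chr1:55088053-55088082, plus strand, 89 bases before the start: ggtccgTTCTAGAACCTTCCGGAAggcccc
Hspd1, chr1:55088053-55088082, minus strand, 144 bases before the start: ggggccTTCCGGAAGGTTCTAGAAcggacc
Dnajb6, chr5:29735844-29735872, plus strand, 46 bases before the start: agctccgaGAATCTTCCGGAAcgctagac
Hsph1, chr5:149636280-149636308, minus strand, 16 bases after the start: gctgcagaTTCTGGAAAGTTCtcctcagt
Hspe1 and Hspd1 lie head to head, and the same bases serve both windows, read from opposite strands. Each of their 2 entries holds 2 overlapping matches. A match describes letters in a window and is not a measured binding site, and no match says only that these letters were not in the window.

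For Hspa8, the constitutive cytosolic HSP70, the stretch printed next shows how little separates the gene (chromosome 9, 40800984 to 40810087, plus strand, GRCm38) from a processed pseudogene, Gm15459 (chromosome 5, 5781615 to 5783555, minus strand). The 1938 coding bases of the Hspa8 transcript in GENCODE M21 differed from Gm15459 at 5 bases, an identity of 99.74%, and the longest run without a difference was 672 bases. The 41 bases below surround the difference that ends that run, at coding base 1222, which is G21A counted from the left end of the stretch. The capital marks it.
Hspa8: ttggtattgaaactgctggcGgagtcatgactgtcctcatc
Gm15459: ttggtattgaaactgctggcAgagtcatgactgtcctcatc
A read that covers none of the 5 bases can match both places, and how such reads were assigned is not given in the sources used here.

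The question of the comparison was which of these genes differ in RNA level between rsCBE and WT small pre-B cells. Of the 81 genes, 71 had a count in at least 1 library, and 47 passed the count filter of edgeR and were tested. Two-sided p-values were adjusted for all 7792 tested genes (Benjamini-Hochberg), and 0.05 was the threshold. Only Dnajc9 and Hspa13 passed it, both lower in rsCBE, and 0 genes passed it in the upward direction. That is 2 of 47 chaperone genes (4.26%), where 1.69% of all tested genes passed in either direction, 1.49% as lower and 0.205% as higher. The DESeq2 Wald test called Dnajc9 alone. At an unadjusted p under 0.05 in edgeR, 6 of 47 passed, 2 of them higher (Hspa8 and Dnajb11) and 4 lower (Dnajc9, Hspa13, Tcp1 and Dnajc10), against 10.2% of all tested genes. The groups did not overlap in CPM for 8 of the 47, against 16.1% of all tested genes. Of those 8, 3 were higher in rsCBE (Dnaja3, Dnajb11 and Dnajc16) and 5 lower (Hspa13, Dnajc9, Dnajc10, Tcp1 and Cct6a), where 7.23% and 8.92% of all tested genes stood apart in these directions. The shares at an unadjusted p and without overlap are near those of all genes.

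The median log2 fold change (rsCBE over WT) of the 47 genes was 0.09, with 27 above 0 (57.45%) and 20 below. That of all 7792 tested genes was 0.01, with 51.77% above 0. Together the 81 genes took 0.576% ± 0.0193 (SD, n = 3) of all counts in WT and 0.585% ± 0.0536 in rsCBE. In WT the shares were 0.581%, 0.592% and 0.555%, and in rsCBE they were 0.542%, 0.645% and 0.567%. The rsCBE libraries thus held both the lowest and the highest share, and their 95% Wilson intervals (0.526% to 0.558% and 0.629% to 0.661%) did not overlap. These intervals, like the floor of 3 counts, describe counting error alone, because reads are not independent molecules. In bulk RNA, fewer cells of a type and less RNA per cell cannot be told apart.

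**Figure D1:**
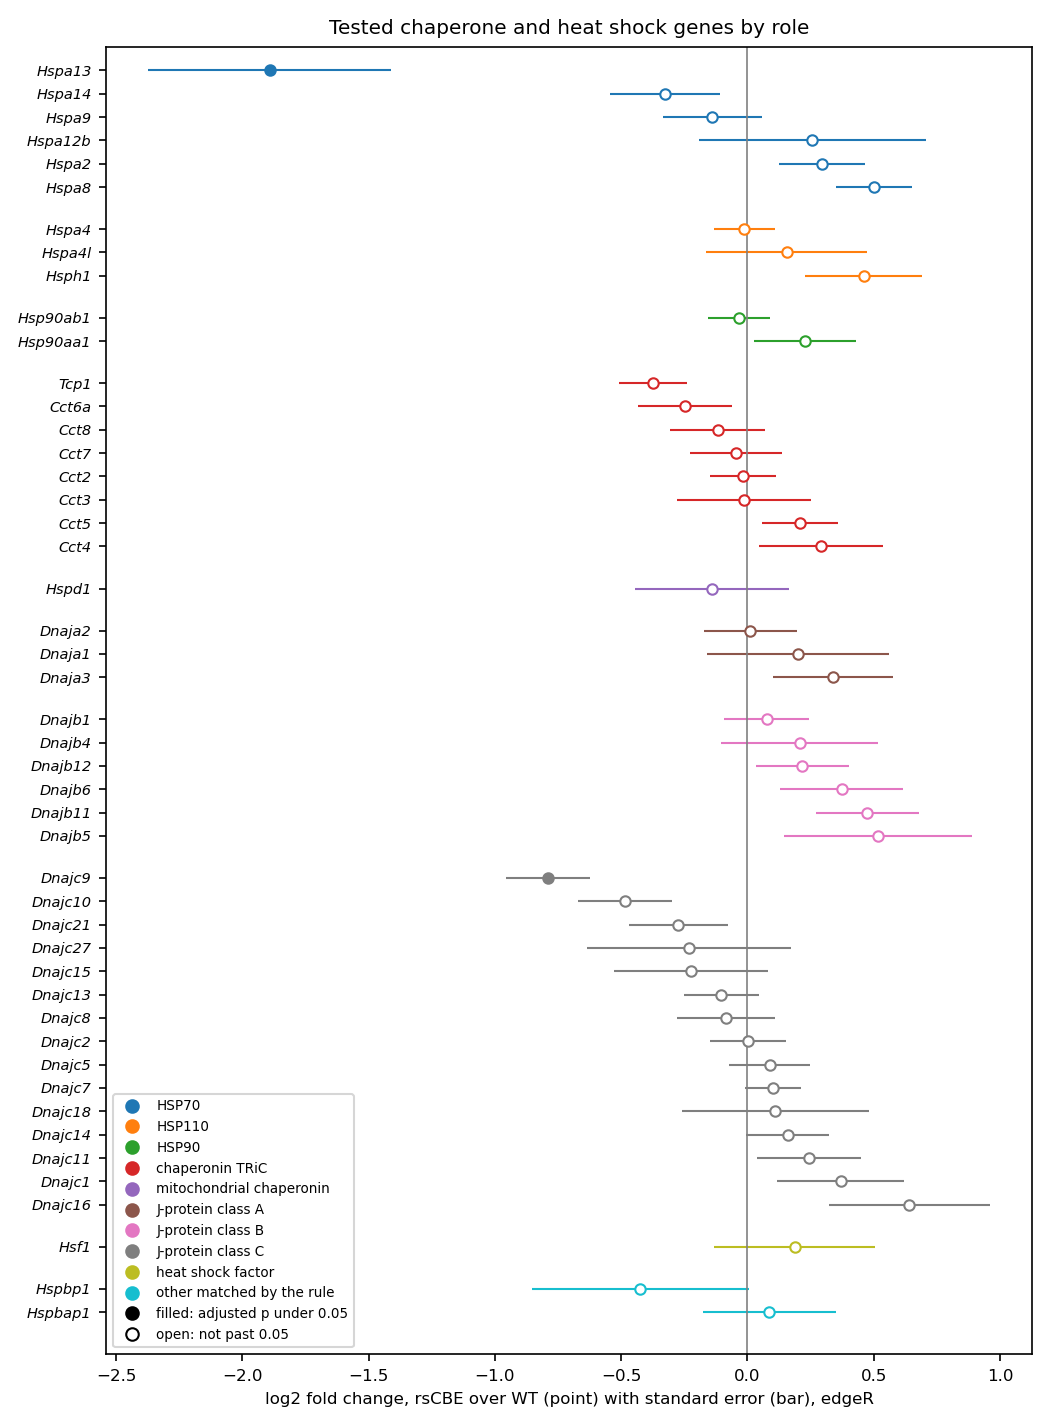
The log2 fold change (rsCBE over WT) of each of the 47 tested genes is drawn as a point with its standard error as a bar, coloured by role. The filled points, Dnajc9 and Hspa13, passed an adjusted p of 0.05, and the other points, drawn open, lie within 0.64 of 0.

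Dnajc9 (chromosome 14, 20384638 to 20388910, minus strand, GRCm38), a J-protein that also acts as a chaperone of histones H3 and H4, gave 146, 149.6 and 146.5 CPM in WT replicates 1 to 3. In rsCBE replicates 1 to 3 it gave 84.7, 99.2 and 69.5 CPM. Each rsCBE library was below each WT library, and the WT values lay within a few CPM of each other. The group means were 147.4 ± 1.93 and 84.5 ± 14.9 CPM (SD, n = 3), a log2 fold change of -0.79 ± 0.17 (SE, edgeR, adjusted p = 0.00748), which is 1.73-fold lower. Within the libraries that had Y-linked counts, rsCBE replicate 1 was likewise below all 3 WT libraries. With the Xist and Y-linked pattern as a covariate the estimate, which rests on those same libraries, was -0.80 and the call was lost. The call was also lost without WT replicate 3 (-0.79, adjusted p = 0.0755) and without rsCBE replicate 3 (-0.68, adjusted p = 0.0998). The cell cycle list given above was lower in the same libraries, and its part in this difference was not tested.

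An E2F motif in the Dnajc9 window is printed here because E2F factors control many genes of DNA replication. GCGGGAAA and TTTGGCGC were searched on both strands, a choice made after the values of Dnajc9 had been seen. A match occurred in 4 of 83 member windows (4.82%), that of Dnajc9 among them, and in 1.56% of all windows. Because Dnajc9 prompted the search, these shares are a description and not a test, and a role of the motif was not tested.
Dnajc9, chr14:20388861-20388879, minus strand, 40 bases after the start: ttatttggGCGGGAAAagg
The other matches were in the windows of Cct3, Dnajc19 and Dnajc5g. Of these, only Cct3 was tested, at a log2 fold change of -0.01 ± 0.27 (SE), and Dnajc5g had no count in these libraries.

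Hspa13 (chromosome 16, 75745431 to 75767104, minus strand, GRCm38) encodes an HSP70 relative associated with the endoplasmic reticulum that lacks the usual client-binding part. It had 11, 8 and 21 counts in the WT libraries and 6, 4 and 2 counts in the rsCBE libraries, or 17.9, 19.6 and 16.6 CPM against 7.26, 4.13 and 2.53 CPM. Each rsCBE library was below each WT library, and rsCBE replicate 3 was under the floor of 3 counts (3.79 CPM there). The means were 18.03 ± 1.502 and 4.64 ± 2.41 CPM (SD, n = 3). The log2 fold change was -1.89 ± 0.48 (SE, edgeR, adjusted p = 0.0376), a fitted ratio of 3.71-fold lower that rests on few counts. The call was lost with the DESeq2 Wald test (adjusted p = 0.187), with the Xist and Y-linked covariate (-1.26, adjusted p = 0.482), and when any WT library or rsCBE replicate 2 or 3 was left out (adjusted p 0.114 to 0.307). No exon of another annotated gene overlapped Hspa13 or Dnajc9, and Hspa13 shared no 50-base stretch with another gene. Dnajc9 shared 4.8% of its stretches with Gm16550, which has no row among the deposited counts.

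**Figure D2:**
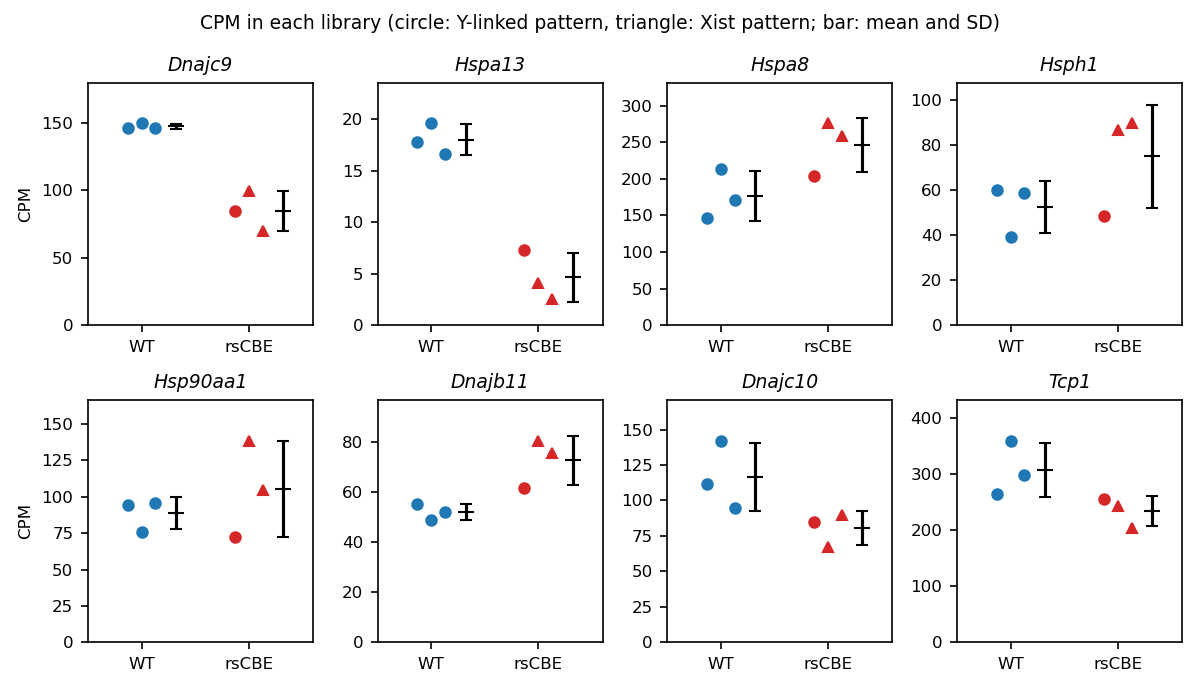
CPM of 8 genes is plotted for each library, WT in blue and rsCBE in red, as circles for libraries with Y-linked counts and triangles for those with Xist, with the mean and SD as a black bar. For Dnajc9 and Hspa13 all 3 rsCBE points lie below all WT points, while for Hspa8, Hsph1 and Hsp90aa1 the rsCBE circle lies at or below the highest WT point.

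Among the other HSP70 genes, Hspa8 came nearest to the threshold. Its own row gave 146, 213.3 and 171.8 CPM in WT and 204.6, 275.9 and 258.9 CPM in rsCBE. rsCBE replicates 2 and 3 were above every WT library, and replicate 1 was within the WT range. The log2 fold change was 0.50 ± 0.15 (SE, edgeR, adjusted p = 0.107), and with the covariate it was 0.23 (adjusted p = 0.722). It passed the threshold with no count filter (0.51, adjusted p = 0.0488), with a filter at a CPM of 1 in 3 libraries (0.52, adjusted p = 0.0318) and without rsCBE replicate 1 (0.62, adjusted p = 0.0167).

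The rows of the pseudogenes printed beside Hspa8 change this value. Of the 50-base stretches of the Hspa8 coding transcripts, 67.3% also occurred in another gene, and 11 pseudogene rows that share them held 1350 counts, more than the 1035 of Hspa8 itself. Gm15459 alone had 1067 counts, at 149.3, 223.1 and 233.6 CPM in WT and 131.9, 290.4 and 251.3 CPM in rsCBE, which overlap. Gm8355 had 260 counts, at 42.2 to 83.4 CPM in WT and 40.0 to 55.8 CPM in rsCBE. When the counts of the copies were added to Hspa8, an alternative chosen after seeing the data, the log2 fold change was 0.25 ± 0.18 (SE, edgeR, adjusted p = 0.723). Hspa8's own row made up 42.3%, 40.7% and 37.0% of the joint CPM in WT and 54.0%, 43.9% and 45.5% in rsCBE, so the split between the rows was not constant across libraries.

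**Figure D3:**
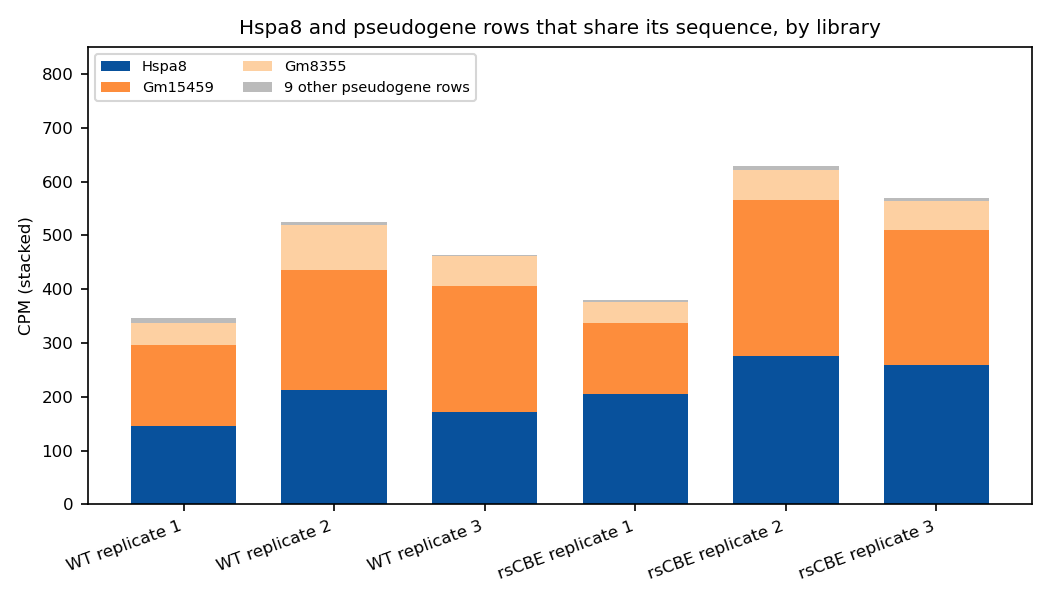
Stacked bars give the CPM of Hspa8 (blue) and of the pseudogene rows that share its sequence (Gm15459 in orange, Gm8355 in pale orange and 9 others in grey) in each library. The joint height runs from 346 to 525 CPM in WT and from 379 to 628 CPM in rsCBE, so the groups overlap.

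Hspa2, an HSP70 best known from male germ cells, gave 100.6, 191.3 and 146.5 CPM in WT and 181.6, 182.9 and 162.9 CPM in rsCBE. The groups overlapped, at a log2 fold change of 0.30 ± 0.17 (SE). Hspa14, which works on ribosomes with the J-protein Dnajc2, gave 107.1, 76.0 and 79.2 CPM in WT and 44.8, 78.6 and 84.6 CPM in rsCBE. Its log2 fold change of -0.33 ± 0.22 (SE) came with 1 low rsCBE library and 2 within the WT range. It was -0.10 without that library, rsCBE replicate 1, and -0.96 ± 0.29 (SE, edgeR, adjusted p = 0.128) with the covariate. Hspa9, the mitochondrial HSP70, gave 64.9 to 94.1 CPM in WT and 65.4 to 73.4 CPM in rsCBE, and Hspa12b, a distant relative of the family, 2.45 to 17.4 and 12.6 to 15.5 CPM. Their log2 fold changes were -0.14 and 0.26, with standard errors of 0.20 and 0.45, and Hspa12b was at 1.24 without WT replicate 3.

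The stress-inducible pair Hspa1a and Hspa1b was hardly detected. Hspa1a had 2, 0 and 0 counts in WT and 3, 0 and 2 in rsCBE, 7 in all. Hspa1b had 1, 1 and 4 counts in WT and 1, 2 and 1 in rsCBE, 10 in all. Nearly all of these values are at or under the floor, so a difference was not detectable at this depth. The pair also shares 58.8% of the 50-base stretches of Hspa1a, and reads of one cannot always be told from the other. Hspa1l, the third gene of that cluster, had 0 counts in all libraries.

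Of the HSP110 genes, Hsph1 gave 60.0, 39.2 and 58.6 CPM in WT and 48.4, 86.8 and 89.7 CPM in rsCBE. rsCBE replicates 2 and 3 were above all WT libraries and replicate 1 was within their range. The log2 fold change was 0.46 ± 0.23 (SE, edgeR, adjusted p = 0.516), and it was -0.18 with the covariate. Hspa4 gave 287.5 to 298.5 CPM in WT and 264 to 303.8 CPM in rsCBE, a log2 fold change of -0.01 ± 0.12 (SE). Hspa4l gave 14.6 to 29.3 CPM in WT and 25.3 to 26.6 CPM in rsCBE, and its log2 fold change was 0.16 ± 0.32 (SE).

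The HSP90 genes differed from each other in level. Hsp90ab1, the constitutive form, held 19.2% of the counts of the 81 genes, and per kilobase of exon its level was above that of 99.5% of 7477 tested genes with a known length. It gave 1256, 1344 and 967 CPM in WT and 1005, 1360 and 1095 CPM in rsCBE. The groups spanned nearly the same range, with a log2 fold change of -0.03 ± 0.12 (SE). With the covariate the 2 HSP90 genes were both below 0, at a median of -0.276. Hsp90aa1, the stress-inducible form, gave 94.1, 76.0 and 95.8 CPM in WT and 72.6, 138.5 and 104.8 CPM in rsCBE. rsCBE replicate 1 was the lowest of the 6 and replicate 2 the highest. Its log2 fold change was 0.23 ± 0.20 (SE, edgeR, adjusted p = 0.780), -0.32 with the covariate and -0.03 without rsCBE replicate 2. Shared sequence touches this gene too, since 50.1% of its 50-base stretches occur elsewhere. With the 274 counts of 3 pseudogene rows added to its own 487 the log2 fold change was 0.06.

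The TRiC genes, whose products form one complex, did not share a direction. Tcp1 gave 264.5, 360.5 and 299.3 CPM in WT and 256.6, 243.9 and 204.6 CPM in rsCBE. Each rsCBE library was below each WT library, at a log2 fold change of -0.37 ± 0.14 (SE, edgeR, adjusted p = 0.238). Cct6a gave 89.2, 100.5 and 75.2 CPM in WT and 75.1, 74.4 and 66.9 CPM in rsCBE, which are separated by only a fraction of a CPM at their nearest. Its log2 fold change was -0.25 ± 0.19 (SE). For the remaining subunits the log2 fold changes were -0.12 (Cct8), -0.05 (Cct7), -0.02 (Cct2), -0.01 (Cct3), 0.21 (Cct5) and 0.29 (Cct4), with standard errors of 0.13 to 0.27. Without WT replicate 3, Cct4 was at 0.82 (edgeR, adjusted p = 0.312) and Cct3 at 0.245. The 8 tested subunits had a median of -0.03, with 2 above 0 and 6 below. The 6 below 0 became 3 with the covariate or without rsCBE replicate 3, and 4 without WT replicate 3 or with the filter at a CPM of 1. Cct6b, a form known from testis, had 1 count. Of the 8, Cct3 varied most within rsCBE relative to its mean, at 60.5, 52.7 and 26.5 CPM.

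Per kilobase of exon the 8 subunits were far from equal in level, from 7.15 CPM per kb (Cct3) to 87.7 (Cct2), as means of 6 libraries. Cct5 (73.5) and Tcp1 (54.0) followed Cct2. With the length of the longest coding transcript in place of all exons, the range was 19.9 (Cct4) to 114.5 (Cct2), so the order depends on which transcript length is used. In the same unit over all exons, Hsp90ab1 stood at 390.5 and Dnajc7 at 151.5 CPM per kb. Hspa2 stood at 60.9, Hspa4 at 52.8 and Hspa8 at 49.2, and Hspa13 was the lowest of the tested genes at 1.66. With the longest coding transcript this order changed too, and Hspa8 (88.5) was above Hspa2 (63.7) and Hspa4 (63.2). Hspa4l (2.527) was then below Hspa13 (2.675). The Hspa8 levels count its own row alone, without the 1350 counts of the pseudogene rows that share its sequence.

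**Figure D4:**
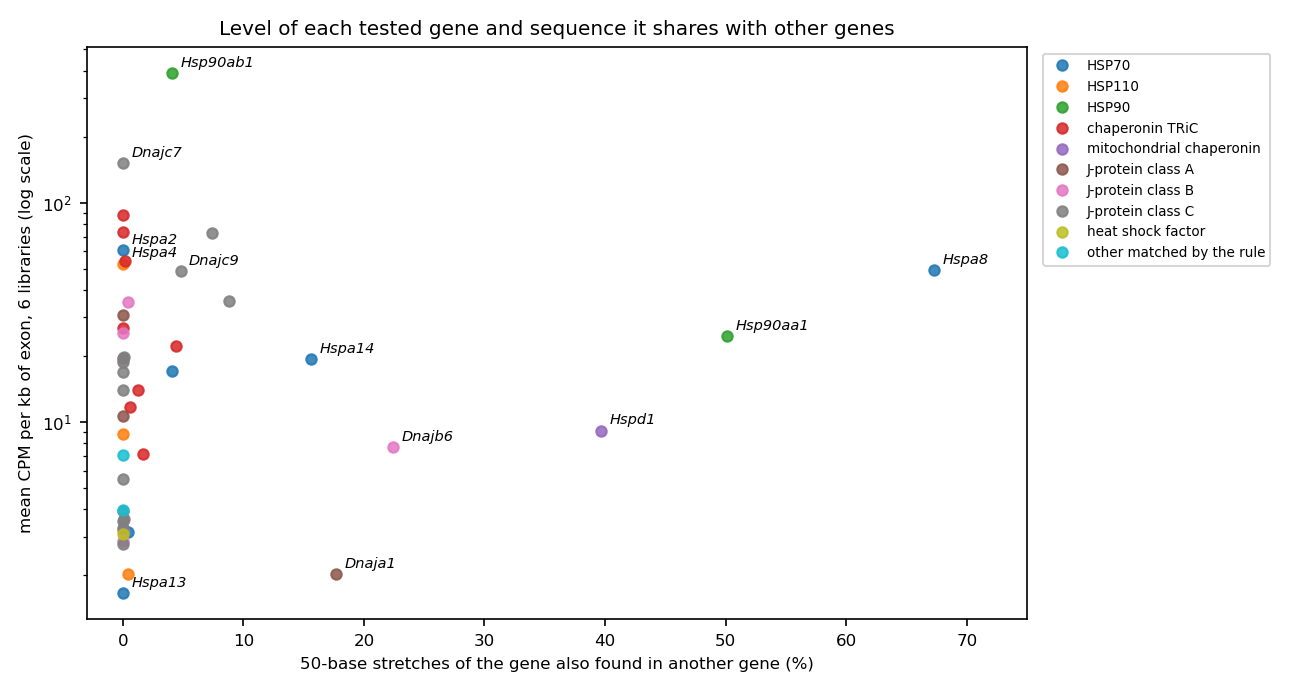
Each point is a tested gene, with the percentage of its 50-base stretches that occur in another gene on the x axis and its mean CPM per kb of exon over 6 libraries on a log y axis, coloured by role. Most genes stand near 0%, while Hspa8 (67.3%), Hsp90aa1 (50.1%) and Hspd1 (39.7%) stand apart to the right.

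Hspd1, whose promoter window holds the element printed above, gave 24.3, 19.6 and 30.1 CPM in WT and 21.8, 24.8 and 24.0 CPM in rsCBE. The rsCBE values lay inside the WT range, at a log2 fold change of -0.14 ± 0.31 (SE). Its partner Hspe1 had 34 counts in all and was not tested. Dnajb6 and Hsph1, whose windows also hold the element, had log2 fold changes of 0.37 and 0.46, and neither passed the threshold. Hsf1 itself gave 21.1, 22.1 and 19 CPM in WT and 20.6, 25.8 and 22.7 CPM in rsCBE. The groups overlapped, and the log2 fold change was 0.19 ± 0.32 (SE, edgeR, adjusted p = 0.910).

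Small heat shock proteins bind unfolding proteins without ATP and are prominent in muscle and lens. None of the 8 Hspb genes, grouped here by symbol and not by activity, was tested. Hspb2, Hspb3, Hspb7, Hspb8 and Hspb9 had 0 counts, which over all libraries allows a share of up to 6.00e-05% of the counts. Hspb1 had 1 count, Hspb11 2 and Hspb6 8. No difference was detectable for them at this depth.

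All 3 tested class A J-proteins, which work with HSP70 in general folding, were above 0. Dnaja2 gave 84.4, 98.1 and 92.7 CPM in WT and 85.9, 112.7 and 75.8 CPM in rsCBE, at a log2 fold change of 0.01. Dnaja3, the mitochondrial form, gave 43.8, 27.0 and 38.0 CPM in WT and 50.8, 44.4 and 46.7 CPM in rsCBE. Each rsCBE library of Dnaja3 was above each WT library, and the log2 fold change was 0.34 ± 0.24 (SE, edgeR, adjusted p = 0.694). Dnaja1 gave 9.81 to 23.0 CPM in WT and 17.0 to 22.7 CPM in rsCBE, a log2 fold change of 0.20 that was 0.49 with the counts of its pseudogene rows added and 0.755 without WT replicate 3. With the covariate 1 of the 3 was above 0, and 2 were above it without WT replicate 1 or without rsCBE replicate 2.

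In class B, all 6 tested genes had a log2 fold change above 0 and 0 of 6 passed the threshold (edgeR, 1 at an unadjusted p under 0.05). Of all tested genes, 51.8% were above 0. Dnajb11, a J-protein of the endoplasmic reticulum, gave 55.2, 49.0 and 52.3 CPM in WT and 61.7, 80.6 and 75.8 CPM in rsCBE. Its groups did not overlap, and its log2 fold change was 0.47 ± 0.20 (SE, edgeR, adjusted p = 0.385), or 0.24 with the covariate (adjusted p = 0.830). Dnajb1, the main heat-inducible J-protein, gave 102.2, 127.5 and 103.7 CPM in WT and 105.3, 131.3 and 107.4 CPM in rsCBE. Those are nearly the same 3 values in either group, and the log2 fold change was 0.08 ± 0.17 (SE). For Dnajb5, Dnajb6, Dnajb12 and Dnajb4 the log2 fold changes were 0.52, 0.37, 0.22 and 0.21, with overlapping groups. The number above 0 was 4 of 6 with the covariate and 5 of 6 without rsCBE replicate 2. Summed over class B, WT libraries gave 316 to 338 CPM and rsCBE libraries 364 to 412 CPM. The sums of class A (135 to 154 and 145 to 177 CPM), of class C (2083 to 2115 and 1852 to 2291 CPM) and of all J-proteins (2541 to 2597 and 2371 to 2880 CPM) overlapped between WT and rsCBE. Outside the J-proteins, the HSP110 sums did not overlap either, at 355.6 to 375.4 CPM in WT and 377.7 to 416.5 CPM in rsCBE. Their nearest values were close, and for each of the 3 HSP110 genes alone the groups overlapped. The sums of HSP70, HSP90 and TRiC overlapped. No share over all genes is available for sums of this kind, so sums that stand apart are only described.

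Class C holds J-proteins with specialised partners. Of its 15 tested genes, 8 were above 0 and 7 below, with a median of 0.00, and only Dnajc9 passed the threshold. Dnajc7, which binds both HSP70 and HSP90, was the most abundant, with 715.5, 693.9 and 723 CPM in WT and 642.7, 872.3 and 774.2 CPM in rsCBE. WT was narrow and rsCBE lay on both sides of it, at a log2 fold change of 0.10 ± 0.11 (SE). Dnajc13, an endosomal protein, gave 186.4 to 223.3 CPM in WT and 155.3 to 226.4 CPM in rsCBE. Dnajc8, which is associated with the spliceosome, gave 181.5 to 198 CPM in WT and 119.8 to 249.1 CPM in rsCBE. Neither log2 fold change, -0.10 and -0.09, exceeded its standard error. With the covariate, Dnajc8 was at -0.69 ± 0.21 (SE, edgeR, adjusted p = 0.132), with rsCBE replicate 1 below all WT libraries.

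Dnajc10, a disulfide reductase of the endoplasmic reticulum, gave 111.9, 142.2 and 95.03 CPM in WT and 84.7, 67.2 and 89.7 CPM in rsCBE. Every rsCBE library was below every WT library, at a log2 fold change of -0.49 ± 0.19 (SE, edgeR, adjusted p = 0.294). Dnajc16 gave 22.7, 14.7 and 16.6 CPM in WT and 27.8, 28.9 and 27.8 CPM in rsCBE. Every rsCBE library was above every WT library there, and 0.64 ± 0.32 (SE, edgeR, adjusted p = 0.506) was the largest log2 fold change in size among the genes that did not pass. Dnajc1, another J-protein of the endoplasmic reticulum, named after its values had been seen, gave 42.2, 34.3 and 34.1 CPM in WT and 33.9, 58.9 and 48.0 CPM in rsCBE, which overlap, at a log2 fold change of 0.37 ± 0.25 (SE). Of the 4 genes of that compartment named at the start, Dnajc10 and Hspa13 were lower and Dnajb11 higher in every rsCBE library, and Dnajc1 was neither.

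Of the 81 genes, 24 had a count but were not tested, none with more than 52 counts in all. The 3 highest were Dnajc25 with 52 counts, Dnajc28 with 50 and Dnajc24 with 39. The 10 genes at 0 were the 5 Hspb genes named above, Hspa1l, Dnajb8, Dnajc5b, Dnajc5g and Dnajc22.

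A list of 55 other genes of the folding machinery was set beside the 81: cofactors of HSP90 and HSP70, prefoldin and tubulin folding factors, and other heat shock factors and regulators of Hsf1. Of these, 38 were tested and 0 passed the threshold with edgeR, 2 at an unadjusted p under 0.05. The DESeq2 Wald test gave 0 and 1. With edgeR, 1.69% of all tested genes passed the threshold and 10.2% had an unadjusted p under 0.05. At such a share, 0 of 38 does not set these genes apart. The median log2 fold change was -0.01, with 17 above 0 and 21 below. The smallest p-values belonged to Ubb, a polyubiquitin gene (log2 fold change -0.58, edgeR, adjusted p = 0.381), Ttc1 (0.69, adjusted p = 0.478) and Stub1, a ubiquitin ligase that acts on chaperone clients (-0.40, adjusted p = 0.598). Ubb gave 71.4, 142.2 and 76.8 CPM in WT and 81.1, 54.8 and 46.7 CPM in rsCBE, which overlap. With the covariate Ubb was at -0.16 and Ttc1 at 0.16.

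**Figure D5:**
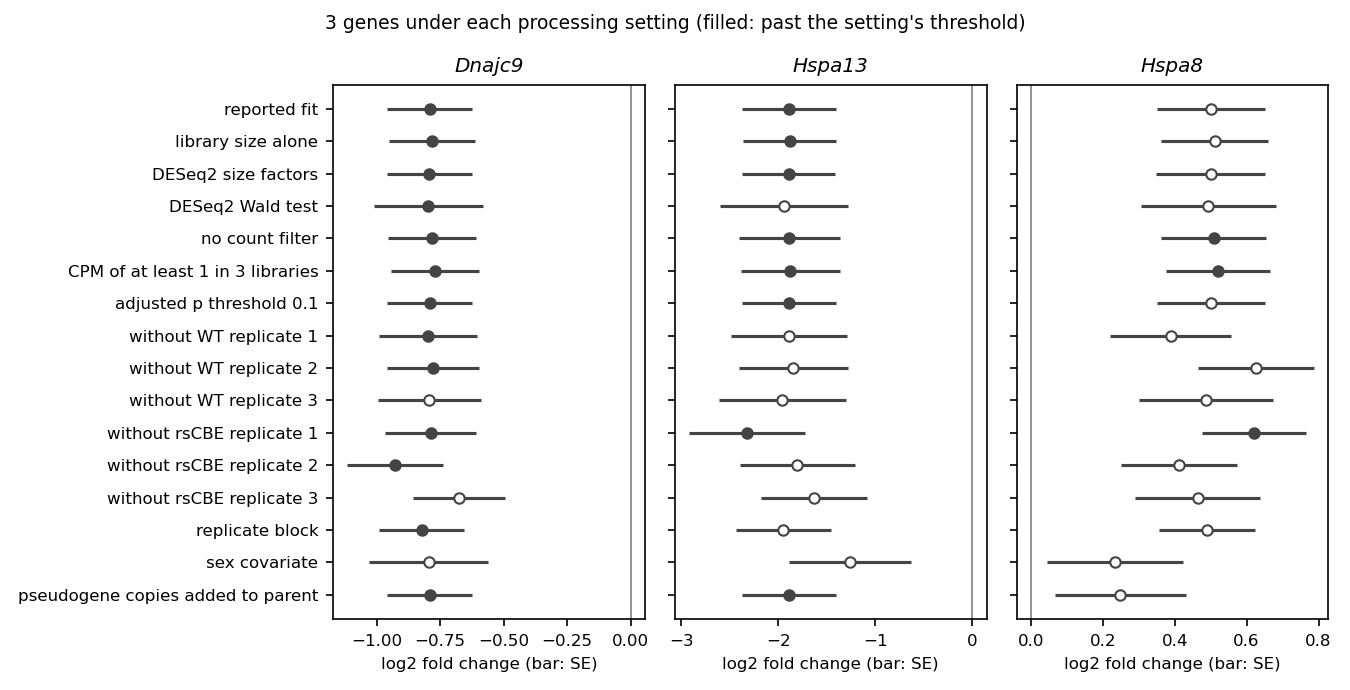
Log2 fold changes (rsCBE over WT, points) with standard errors (bars) of Dnajc9, Hspa13 and Hspa8 are drawn for the reported fit and each alternative setting, filled where they passed the threshold of that setting. All 3 genes kept their sign in every setting shown, and the filled points change with the setting, as with Dnajc9, which is open at -0.80 under the sex covariate.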

How the data were processed

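The deposited table holds whole-number read counts per gene symbol, 1 column per library, without normalization. The submitters' processing notes name mm10, Trim Galore 0.6.10, STAR 2.7.11, HTSeq and DESeq2, with no role or order; annotation, strand setting and read length are not given in the sources used here. Counts were tested with edgeR 4.0.16 in R 4.3.3: filterByExpr (minimum count 10), TMM scaling, glmQLFit with robust estimation and glmQLFTest, genotype as the sole factor. The procedure was tested on simulated data. CPM are printed per library and as mean ± SD.

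Gene positions, exon lengths and shared 50-base stretches (same orientation) came from GENCODE M21, which listed 80 of the 81 genes, and promoters from RefSeq. Named were all genes past the threshold, all tested genes of the small families, and in each J-protein class the 3 most abundant and the 3 with the largest change. Alternatives covered scaling, filter, threshold, DESeq2 1.42.0, each library left out, a replicate block and a sex covariate, and pseudogene rows added. Members, lists and most alternatives were chosen with earlier results of these data known.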

Additional observations from a re-analysis of the deposited data

How the results depend on the processing

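The number of chaperone genes past the threshold (2, both lower) was 1 with the DESeq2 Wald test, 1 with the replicate block and 0 with the sex covariate, and 0 to 3 when 1 library was left out, of which 0 to 2 were lower and 0 to 1 higher. The number of higher ones was 1 without a count filter and 1 when genes had to reach 1 CPM in 3 libraries (Hspa8 in each). The median log2 fold change was -0.005 with the sex covariate and between -0.009 and 0.135 with 1 library left out. Alternatives were fitted over all genes that passed the filter, but values by gene were drawn up only for the genes that the naming rule gives. With the covariate, the genotype estimate is that of rsCBE replicate 1 against the WT libraries. Named genes that crossed 0 there by a move of over 1 standard error were Cct3 (0.345), Dnajb12 (-0.056), Dnajc13 (0.094), Dnajc7 (-0.147), Hsp90aa1 (-0.321) and Hsph1 (-0.177). With 1 library left out, Cct4 ran from 0.142 to 0.821, Hspa12b from 0.004 to 1.240 and Dnaja1 from 0.051 to 0.755, all above 0, while Dnaja2 ran from -0.173 to 0.125, Dnajc8 from -0.399 to 0.135 and Hsp90aa1 from -0.031 to 0.430. The cause was not tested.

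The labels state no pairing of the samples by replicate number. Same-numbered libraries had correlations of 0.018, 0.018 and 0.007 between their deviations from the group means, and the other pairs -0.049 to 0.033. With 3 libraries per group, such values cannot exclude a pairing. With the replicate block, Hspa13 had a log2 fold change of -1.95 (adjusted p = 0.0529). Left-out fits keep 2 libraries in 1 group. At these depths, the filter left 34 of the 81 genes untested, and 0 of the tested co-chaperone genes passed the threshold under any alternative.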

Other observations

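The 4 genes of endoplasmic reticulum folding set beside the list did not pass the threshold (edgeR). Hspa5, the HSP70 of that compartment, had a log2 fold change of 0.00, Dnajb9 of 0.29, Dnajc3 of -0.07 and Hsp90b1 of 0.04.

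Across the chaperone genes, 71 pseudogene rows shared at least 1 stretch of 50 bases with one of 24 parents, 32 of them had a count, and they held 2378 counts in all. Gm4928, which shares 7.4% of the stretches of Dnajc8, had 299 counts, and Gm12346, which shares sequence with Hsp90aa1, had 239. Adding Gm4928 to Dnajc8 moved its log2 fold change to -0.05, and adding Gm12346 and the other pseudogene rows of Hsp90aa1, 3 in all, moved that gene to 0.06.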
